A study of Rattus norvegicus with 21 samples.

Results

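Axon guidance ligands and receptors were followed in rat forebrain astrocytes, freshly isolated or cultured, by array expression profiling. The 60 members were all genes whose symbol belongs to the semaphorin (Sema3 to Sema7), plexin, neuropilin, ephrin, Eph receptor, Slit, Robo, netrin or Unc5 families, together with Dcc and Spon1, out of 14217 genes measured through 1 probe set each. They were picked by symbol, but with earlier results of these data known. Unc50 and Unc5cl matched by symbol alone and are not guidance receptors, and neither was called in any comparison. Another 14 genes of these families, among them Ephb2, Efnb2, Sema7a, Ntn4 and Robo4, had no probe set with that symbol alone and were not analysed here.

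The study compared astrocytes of Sprague Dawley rats taken at postnatal day 1 (P1) or 7 (P7), in 7 groups of 3 biological replicates. Cells panned with an antibody to the integrin ITGB5 were lysed directly (fresh P1 and fresh P7 cells) or grown for 7 days with HBEGF at 5 ng/ml, a ligand of the EGF receptor (HBEGF P1 and HBEGF P7 cultures). Serum P7 cultures were panned P7 cells kept for 7 days in 10% foetal calf serum, and a portion of such cells was then rinsed free of serum and kept in HBEGF medium for 7 further days (withdrawn P7 cultures, 14 days in all). MD cultures were P1 forebrain astrocytes made by the method of McCarthy and de Vellis, which uses no panning, and were grown in 10% foetal calf serum for 7 days. No group carried a genetic change. The labels do not say how many animals went into a replicate, so the p-values measure the spread between these preparations. For the HBEGF P7 cultures 1 label reads p1 although title and source name read P7, and the title was followed.

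Guidance cues are secreted or membrane-bound proteins that attract or repel growing axons and migrating cells, and astrocytes both release them and carry their receptors. Class 3 semaphorins are secreted and act mostly through a neuropilin paired with a plexin, while the other vertebrate classes are membrane-bound and bind plexins directly. Ephrin-A ligands are lipid-anchored and prefer EphA receptors, ephrin-B ligands span the membrane and prefer EphB receptors, and EphA4 binds both kinds. Slits repel through Robo receptors, and netrin-1 attracts through DCC and repels through UNC5 receptors, whereas netrin-G1 is a lipid-anchored relative that binds the leucine-rich repeat protein encoded by Lrrc4c. F-spondin, encoded by Spon1, is a secreted matrix protein first known from the floor plate of the spinal cord.

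Values are log2 of the deposited array intensity, given in replicate order. The level of a probe set says nothing of its level relative to another gene's, so only differences between groups were read. A change was called at a limma adjusted p under 0.05 together with a log2 change of at least 1, which is 2-fold, and "rose" and "fell" are kept for called changes. Having 3 arrays in a group limits precision, and no exact permutation test of a single gene can go below p = 0.1. Array medians lay between 128 and 146 on the linear scale, and Spearman correlations between arrays of a group between 0.963 and 0.994, lowest in the HBEGF P7 cultures. Gfap, the astrocyte filament gene, had group means between 12.50 and 14.69, and Aldh1l1, another astrocyte marker, between 8.65 in MD cultures and 12.56 in fresh P7 cells. Itgb5, the panning antigen, lay between 10.48 and 12.11, Egfr between 9.21 and 12.60, and Hbegf between 7.82 and 11.88, highest in MD cultures.

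Markers of other cells moved between groups. The mean of 10 fibroblast and meningeal markers (Col1a1, Col1a2, Col3a1, Dcn, Lum, Pdgfra, Igf2, Crabp2, Mgp and Ogn) ran from 8.57 to 9.90 in fresh P1 cells, 9.41 to 10.50 in fresh P7 cells and 10.23 to 10.57 in HBEGF P1 cultures. It was 12.01 to 13.39 in serum P7, 12.81 to 13.25 in withdrawn P7 and 7.56 to 8.16 in MD cultures, and all 10 were called higher in serum P7 than in MD cultures. In HBEGF P7 cultures it was 11.96, 9.64 and 12.11, so that replicate 2 stood apart from the others. The mean of 10 microglia and macrophage markers reached 6.84 to 7.95 in withdrawn P7 cultures against 5.46 to 5.78 in serum P7 cultures, where 10 of 10 lay under the median probe set. It was 5.72 to 6.09 in fresh P1 cells, 6.47 to 7.24 in fresh P7 cells and 5.42 to 7.23 in HBEGF P7 cultures. The mean of 10 neuron markers was 8.74 to 9.07 in HBEGF P1, 7.13 to 8.97 in HBEGF P7 and 7.66 to 7.88 in MD cultures. It was 7.05 to 7.41 in serum P7 and 6.76 to 7.27 in withdrawn P7 cultures. In fresh cells it was 8.02 to 8.34 at P1 and 7.14 to 7.45 at P7. The mean of 6 measured oligodendrocyte progenitor markers was 9.43 to 9.82 in HBEGF P1 and 8.77 to 9.35 in HBEGF P7 cultures, 7.63 to 8.16 in serum P7, 7.65 to 8.40 in withdrawn P7 and 7.47 to 7.503 in MD cultures, and 8.26 to 8.46 in fresh P1 and 8.28 to 8.58 in fresh P7 cells. Of these 6, 3 fell in MD against HBEGF P1 cultures, among them Lhfpl3, which fell by 4.37 ± 0.51 (SE, adjusted p = 4e-06), and 1 in serum P7 against HBEGF P7 cultures, again Lhfpl3, which fell by 3.98 ± 0.51 (SE, adjusted p = 4.79e-05). Not all went this way. Cspg4 and Olig2 were higher in MD than in HBEGF P1 cultures, and Pdgfra and Olig2 higher in serum P7 than in HBEGF P7 cultures, uncalled. Pdgfra stands in both the progenitor and the fibroblast list. The mean of 10 astrocyte markers was lowest in MD cultures, at 11.01 to 11.31, against 12.15 to 12.34 in HBEGF P1 cultures, and was 12.07 to 12.35 in serum P7 and 11.95 to 12.48 in HBEGF P7 cultures. Of other marker lists, the mean over arrays ran from 6.82 to 8.33 for oligodendrocytes, 5.13 to 6.74 for endothelium and 6.28 to 7.40 for mural cells. In such bulk samples fewer cells of a type and less RNA per cell cannot be told apart, and this holds for every change below. The part of these markers in the changes of guidance genes was not tested.

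Of the 60 members, 38 (63.3%) differed among the 7 groups by limma's F test with group means at least 1 log2 apart, against 46% of all 14217 genes. They came from every family except the pair matched by symbol only. The range of group means had a median of 1.63 over the members and 0.95 over all genes. Of the 38, 16 were highest in a fresh group, 18 in a group that had been in serum (MD, serum P7 or withdrawn P7) and 4 in an HBEGF culture. The same split was not made for all genes, and these sets hold unequal numbers of groups, so no trait of the members is read from it. Another set of 17 members lay under the median of all probe sets (7.11) in all 7 groups, and only Sema3a of these was called anywhere. Among them were Dcc, the attractive netrin receptor, Unc5a, Robo1, Robo3, Slit1, Slit3, Sema4d, the ligand of plexin-B1, and the Eph receptors Epha6, Epha7, Epha8 and Epha10. Slit1, for example, lay between 5.87 and 7.57 on the 21 arrays and Dcc between 4.61 and 5.38. An array level this low does not show that a gene is silent.

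**Figure D1:**
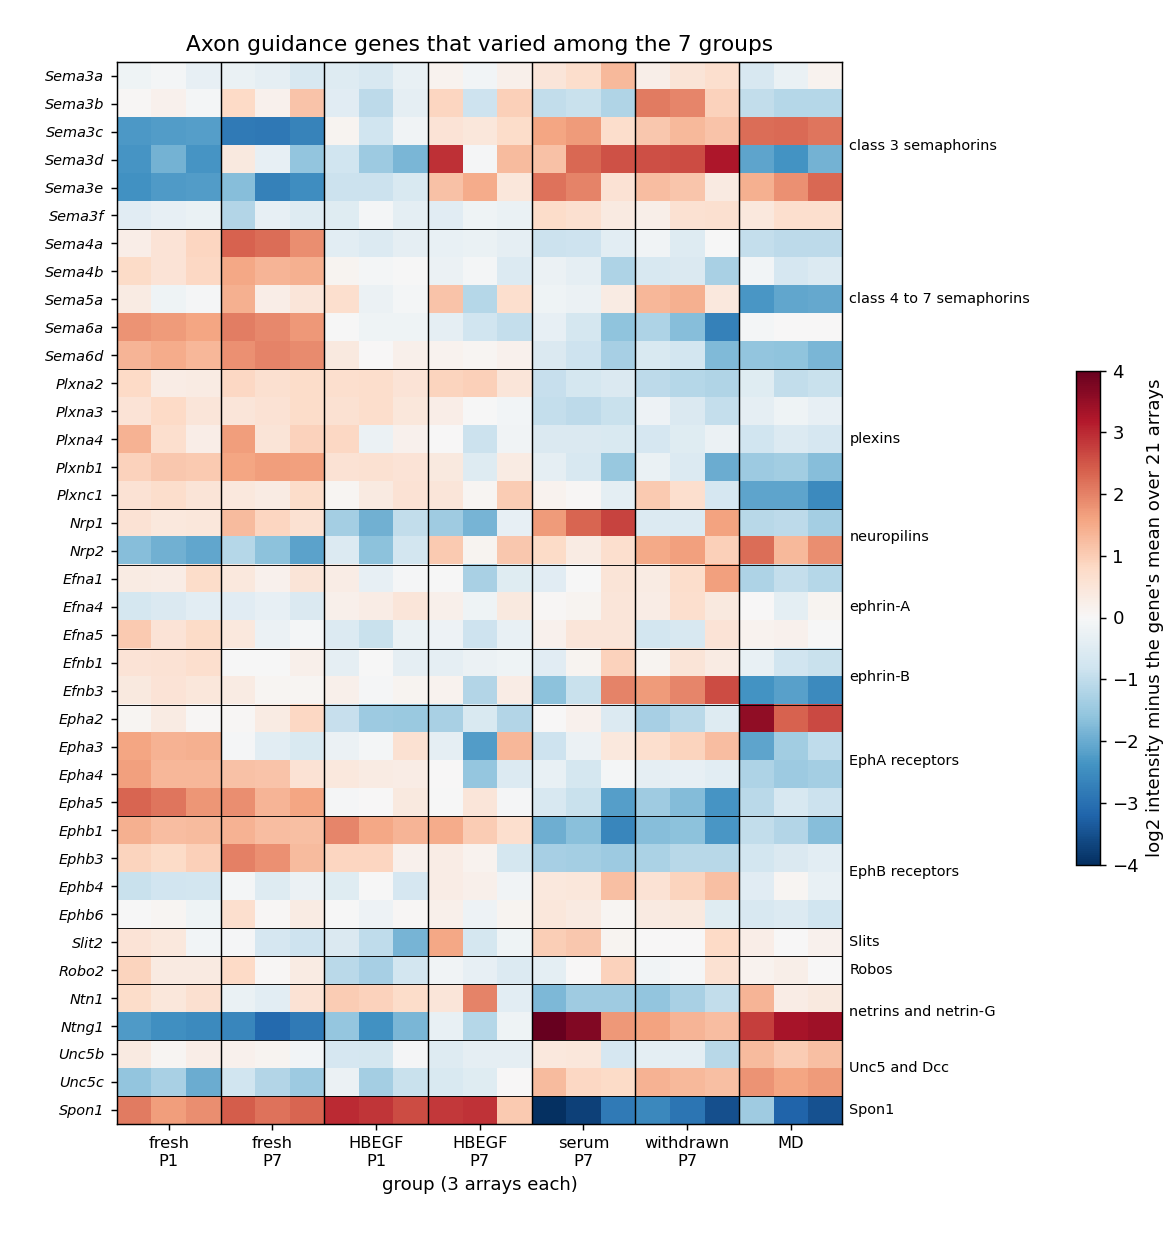
Log2 intensity of the 38 members that differed among the 7 groups, minus the gene's own mean over the 21 arrays, 1 row per gene and 1 column per array, ordered by family and group (colour scale from -4 to 4 log2). Spon1 and Ephb1 are high in the fresh and HBEGF groups and low in the serum, withdrawn and MD groups, and Ntng1 and Unc5c run the other way.

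The comparisons ask how these genes differed with age, with culture and between culture media. Serum P7 and MD cultures had serum and no added HBEGF, and HBEGF cultures the reverse. Presence of serum and lack of added HBEGF therefore cannot be told apart in any comparison between them. The Hbegf transcript of the cells had group means of 11.88 in MD, 8.29 in serum P7, 7.97 in HBEGF P1 and 7.82 in HBEGF P7 cultures. Withdrawn P7 cultures differ from serum P7 cultures in the removal of serum, the addition of HBEGF and 7 more days in culture, and these cannot be told apart either. In fresh P7 against fresh P1 cells, 1 member rose and 0 fell (1.67% called), where 1.37% of all genes rose and 0.183% fell (1.55% called). At an unadjusted limma p under 0.05, 5 of the 60 members were lower in fresh P7 cells, as were 8.21% of all genes. In HBEGF P1 cultures against fresh P1 cells, 2 members rose and 10 fell (20% called), where 4.38% of all genes rose and 4.49% fell (8.87% called). In HBEGF P7 cultures against fresh P7 cells, 5 members rose and 11 fell (26.7% called), where 4.78% of all genes rose and 5.51% fell (10.3% called). Age alone called members at about the rate of all genes, while culture with HBEGF called falls among members at more than the rate of all genes at either age. In HBEGF P7 against HBEGF P1 cultures, 3 members rose and 0 fell (5% called), where 0.753% of all genes rose and 0.359% fell (1.11% called). There 6 of the 60 members and 6.03% of all genes were lower in HBEGF P7 cultures at an unadjusted limma p under 0.05. In MD cultures against fresh P1 cells, 6 members rose and 20 fell (43.3% called), where 10.1% of all genes rose and 9.43% fell (19.6% called). In MD against HBEGF P1 cultures, 9 members rose and 12 fell (35% called), where 8.81% of all genes rose and 9.57% fell (18.4% called). In the comparison of MD cultures with fresh P1 cells, 33.3% of members fell, the largest share of any comparison, while rises stood at the rate of all genes.

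In serum P7 against HBEGF P7 cultures, 3 members rose and 9 fell (20% called), where 4.83% of all genes rose and 4.47% fell (9.3% called). In withdrawn P7 against serum P7 cultures, 2 members rose and 2 fell (6.67% called), where 2.24% of all genes rose and 2.26% fell (4.5% called). In withdrawn P7 against HBEGF P7 cultures, 6 members rose and 8 fell (23.3% called), where 6.29% of all genes rose and 5.42% fell (11.7% called). In serum P7 against MD cultures, 7 members rose and 4 fell (18.3% called), where 7.58% of all genes rose and 6.37% fell (13.9% called). Withdrawn against serum P7 cultures called members at a rate near that of all genes. The median log2 difference of the members stayed between -0.08 and 0.10 in these 10 comparisons, and the median of all genes lay between -0.07 and 0.11. Together the 10 comparisons held 120 calls in 34 of the 60 members, where 37.8% of all genes had a call in at least 1 of them, and in 4 of these calls the arrays of both groups overlapped. The comparisons share groups, so their counts are not independent. The count was 2 without fresh P7 replicate 3 for fresh P7 against fresh P1 cells. It was 0 without HBEGF P1 replicate 2 and 1 without HBEGF P1 replicate 3 for HBEGF P7 against HBEGF P1 cultures. For withdrawn against serum P7 cultures it was 1 without serum P7 replicate 2 or withdrawn P7 replicate 2, 2 without serum P7 replicate 1, and 8 without serum P7 replicate 3.

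Among the secreted class 3 semaphorins, Sema3c and Sema3e rose in every culture that was compared with fresh cells, and most in MD cultures. Sema3C acts through either neuropilin with a plexin partner, and Sema3E binds plexin-D1 without a neuropilin. Sema3c lay at 8.63, 8.71 and 8.71 in fresh P1 and 8.11, 8.08 and 8.26 in fresh P7 cells. In HBEGF cultures it reached 11.03, 10.14 and 10.80 from P1 and 11.47, 11.37 and 11.67 from P7 cells. It was at 12.52, 12.62 and 11.62 in serum P7, 12.02, 12.23 and 12.08 in withdrawn P7 and 13.18, 13.21 and 13.07 in MD cultures. Every cultured array was above every fresh one, and the MD arrays were above all the others. Sema3c rose by 1.97 ± 0.22 (SE, adjusted p = 7.94e-06) in HBEGF P1 cultures against fresh P1 cells, a 3.92-fold difference. It rose by 3.35 ± 0.22 (SE, adjusted p = 1.26e-08) in HBEGF P7 cultures against fresh P7 cells and rose by 4.47 ± 0.22 (SE, adjusted p = 1.97e-10) in MD cultures against fresh P1 cells. MD cultures were above HBEGF P1 cultures by 2.49 ± 0.22 (SE, adjusted p = 2.54e-07). Serum P7 and HBEGF P7 cultures differed by 0.75 ± 0.22 (SE, adjusted p = 0.0227), under the limit of 1.

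Sema3e was at 6.34, 6.51 and 6.54 in fresh P1 and 7.06, 6.07 and 6.28 in fresh P7 cells, and at 7.92, 7.91 and 8.15 in HBEGF P1 and 9.94, 10.24 and 9.22 in HBEGF P7 cultures. It was at 10.94, 10.74 and 9.34 in serum P7, 10.00, 9.88 and 9.11 in withdrawn P7 and 10.18, 10.59 and 11.05 in MD cultures. Here too no cultured array overlapped the fresh ones, and the HBEGF P1 cultures were the lowest of the cultures. Sema3e rose by 1.53 ± 0.38 (SE, adjusted p = 0.00785) in HBEGF P1 cultures, rose by 3.33 ± 0.38 (SE, adjusted p = 6.97e-06) in HBEGF P7 cultures and rose by 4.14 ± 0.38 (SE, adjusted p = 2.38e-07) in MD cultures, each against fresh cells of the same age. Between cultures it was 2.61 ± 0.38 (SE, adjusted p = 4.11e-05) higher in MD than in HBEGF P1 cultures and 1.81 ± 0.38 (SE, adjusted p = 0.024) higher in HBEGF P7 than in HBEGF P1 cultures. This last call did not hold without HBEGF P1 replicate 1, 2 or 3 or HBEGF P7 replicate 1 or 2 in turn (log2 from 1.59 to 1.88, adjusted p from 0.0516 to 0.106) and with only the compared groups in the model (log2 1.81, adjusted p = 0.18).

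Sema3d was higher in every array of the P7 cultures than in the P1-derived arrays. Sema3d was at 4.66, 5.13 and 4.67 in fresh P1 cells, 6.22, 5.57 and 5.21 in HBEGF P1 and 4.92, 4.64 and 5.14 in MD cultures. It was at 7.43, 6.71 and 5.45 in fresh P7 cells, 9.96, 6.99 and 8.29 in HBEGF P7, 8.22, 9.32 and 9.58 in serum P7 and 9.61, 9.65 and 10.27 in withdrawn P7 cultures. HBEGF P7 replicate 2 was the lowest of its group. Sema3d was 4.14 ± 0.58 (SE, adjusted p = 6.21e-05) higher in serum P7 than in MD cultures, where it lay near the bottom of the scale. The fibroblast and meningeal mean ran the same way (12.01 to 13.39 in serum P7 and 7.56 to 8.16 in MD cultures), and HBEGF P7 replicate 2 was also lowest of its group for it. The part of these cells was not tested. Against HBEGF P1 cultures the HBEGF P7 cultures were 2.74 ± 0.58 (SE, adjusted p = 0.0265) higher. This call did not hold without HBEGF P1 replicate 2 or 3 or HBEGF P7 replicate 1 in turn (log2 from 1.97 to 2.69, adjusted p from 0.0693 to 0.111) and with only the compared groups in the model (log2 2.74, adjusted p = 0.383). Against fresh P7 cells they were 1.88 ± 0.58 (SE, adjusted p = 0.0271) higher, with overlapping arrays. That call did not hold without fresh P7 replicate 2 or 3 or HBEGF P7 replicate 1 or 3 in turn (log2 from 1.11 to 1.97, adjusted p from 0.0515 to 0.161) and with only the compared groups in the model (log2 1.88, adjusted p = 0.191). Sema3d kept this call with 32 added before the log, at 3.18 for serum P7 minus MD. Sema3d kept these calls without HBEGF P7 replicate 2, at 2.60 for HBEGF P7 minus fresh P7 and 3.46 for HBEGF P7 minus HBEGF P1.

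Sema3b fell in serum P7 cultures and rose in withdrawn P7 cultures. It was at 8.17, 6.48 and 8.25 in HBEGF P7 cultures, 6.33, 6.42 and 6.09 in serum P7 and 9.38, 9.27 and 8.22 in withdrawn P7 cultures. It was also low in MD cultures, at 6.31, 6.16 and 6.17, against 7.34, 7.48 and 7.24 in fresh P1 cells. The withdrawn arrays were all above those in serum. Sema3b rose by 2.68 ± 0.39 (SE, adjusted p = 0.000622) in withdrawn against serum P7 cultures, a 6.39-fold difference and the largest rise of any member in that comparison. It fell by 1.35 ± 0.39 (SE, adjusted p = 0.0194) in serum P7 against HBEGF P7 cultures. The call did not hold without HBEGF P7 replicate 1 or 3 or serum P7 replicate 3 in turn (log2 from -1.26 to -1.04, adjusted p from 0.0633 to 0.0894) and with only the compared groups in the model (log2 -1.35, adjusted p = 0.132). Withdrawn P7 cultures were 1.33 ± 0.39 (SE, adjusted p = 0.0193) above HBEGF P7 cultures, with overlapping arrays. That call was lost without HBEGF P7 replicate 2 or withdrawn P7 replicate 1 or 2 in turn (log2 from 0.75 to 1.17, adjusted p from 0.0759 to 0.0995) and with only the compared groups in the model (log2 1.33, adjusted p = 0.162). In MD cultures it fell by 1.14 ± 0.39 (SE, adjusted p = 0.0275) against fresh P1 cells. The call was lost without fresh P1 replicate 1 or 2 or MD replicate 1, 2 or 3 in turn (log2 from -1.19 to -1.08, adjusted p from 0.0514 to 0.0746) and with 32 added before the log (log2 -0.88, adjusted p = 0.0514).

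Sema3a, the repellent that acts through neuropilin-1, lay low on the array in all groups, and was higher in serum P7 (6.09, 6.31 and 6.89) than in MD cultures (4.97, 5.33 and 5.75), without overlap. The difference was 1.08 ± 0.21 (SE, adjusted p = 0.000891). The call did not hold without MD replicate 1 or serum P7 replicate 3 in turn (log2 from 0.85 to 0.89, adjusted p from 0.00606 to 0.00707) and with 32 added before the log (log2 0.70, adjusted p = 0.00108). Sema3f, which acts through neuropilin-2, differed among groups by the F test, from 6.02 ± 0.44 (SD, n = 3) in fresh P7 cells to 7.28 ± 0.15 (SD, n = 3) in MD cultures, but was called in none of the 10 comparisons. MD cultures were 0.94 ± 0.18 (SE, adjusted p = 0.000559) above fresh P1 cells and 0.91 ± 0.18 (SE, adjusted p = 0.000783) above HBEGF P1 cultures, under the limit of 1. The other probe set of Sema3f was called higher in both. Sema3g lay between 6.11 and 6.27 in every group and was not called.

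**Figure D2:**
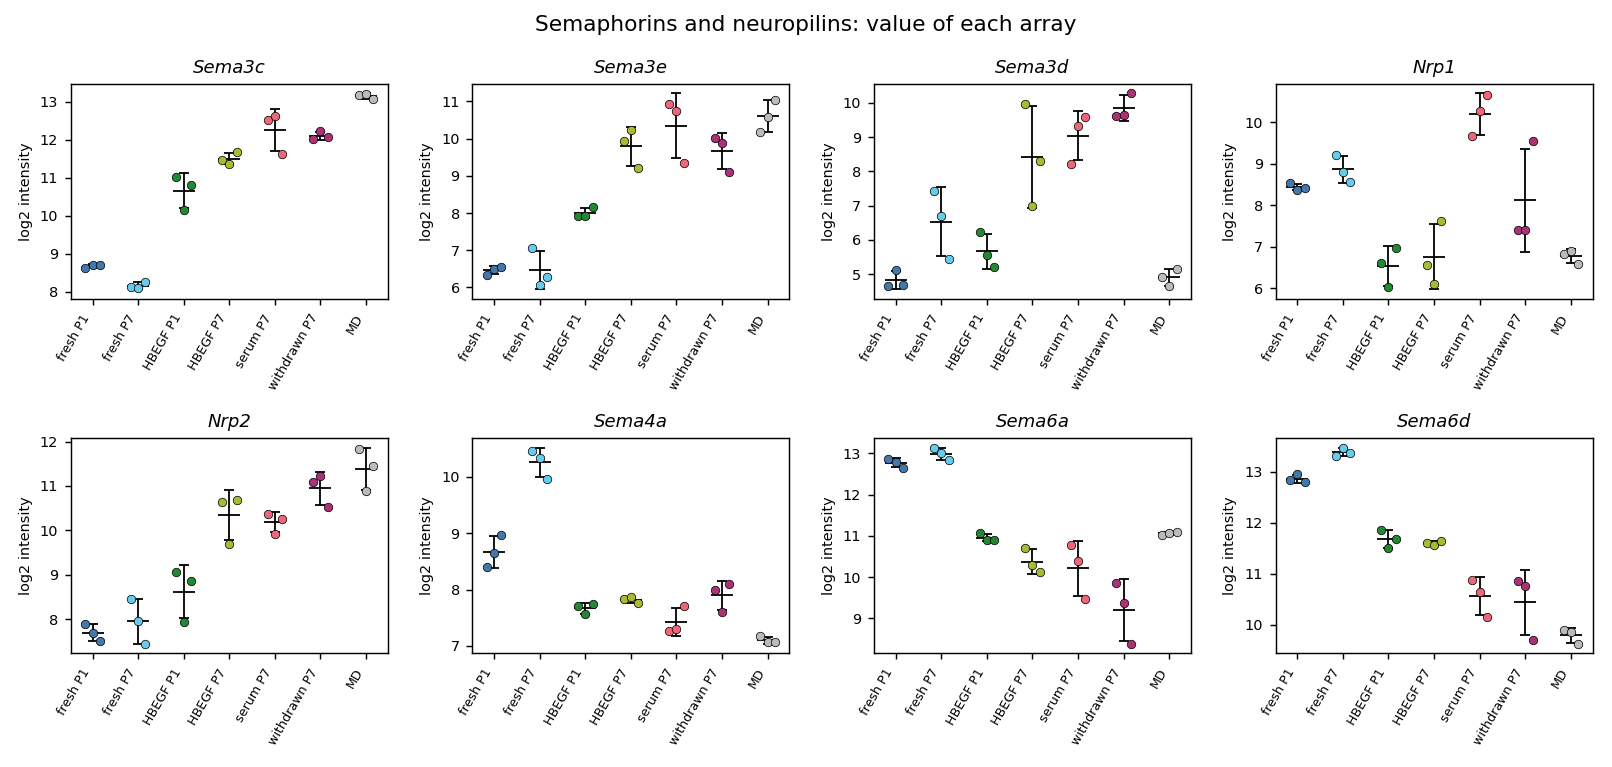
Log2 intensity (vertical axis) of semaphorins and neuropilins in the 7 groups (horizontal axis), with 1 point per array, the mean as a bar and the SD of 3 arrays as whiskers. Sema3c and Sema3e are above the fresh groups in every culture, Sema6a and Sema6d are highest in the fresh groups, and Nrp1 and Nrp2 take different orders among the cultures.

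The neuropilins, co-receptors of the class 3 semaphorins that also bind VEGF, did not share a direction in culture. Nrp1 fell and Nrp2 rose with HBEGF culture of P7 cells and in MD cultures, and Nrp1 was high again in serum P7 cultures. Nrp1 was at 8.53, 8.37 and 8.42 in fresh P1 and 9.22, 8.80 and 8.56 in fresh P7 cells, and at 6.61, 6.03 and 6.97 in HBEGF P1 and 6.55, 6.09 and 7.62 in HBEGF P7 cultures. It was at 6.83, 6.91 and 6.59 in MD, 9.66, 10.28 and 10.64 in serum P7 and 7.40, 7.40 and 9.55 in withdrawn P7 cultures. The serum P7 arrays were above all other arrays, and withdrawn replicate 3 lay near them while the others of its group lay near the HBEGF cultures. Nrp1 fell by 1.91 ± 0.47 (SE, adjusted p = 0.00797) in HBEGF P1 cultures, fell by 2.11 ± 0.47 (SE, adjusted p = 0.00347) in HBEGF P7 cultures and fell by 1.66 ± 0.47 (SE, adjusted p = 0.0102) in MD cultures, each against fresh cells of the same age. In serum P7 cultures it rose by 3.44 ± 0.47 (SE, adjusted p = 9.04e-05) against HBEGF P7 cultures, a 10.9-fold difference, and was 3.42 ± 0.47 (SE, adjusted p = 4.96e-05) above MD cultures. Against serum P7 cultures it fell by 2.08 ± 0.47 (SE, adjusted p = 0.0127) in withdrawn P7 cultures. This call was lost without serum P7 replicate 2 or withdrawn P7 replicate 1 or 2 in turn (log2 from -2.04 to -1.72, adjusted p from 0.0567 to 0.0749) and with only the compared groups in the model (log2 -2.08, adjusted p = 0.108). Withdrawn P7 cultures were 1.37 ± 0.47 (SE, adjusted p = 0.0438) above HBEGF P7 cultures, with overlapping arrays. That call did not hold without HBEGF P7 replicate 1 or 2 or withdrawn P7 replicate 3 in turn (log2 from 0.65 to 1.26, adjusted p from 0.113 to 0.237), with 32 added before the log (log2 1.15, adjusted p = 0.0602), with only the compared groups in the model (log2 1.37, adjusted p = 0.224) and with the mean over its probe sets (log2 0.91, adjusted p = 0.121). The fibroblast and meningeal mean was also higher in serum P7 than in MD and HBEGF P7 cultures (12.01 to 13.39, 7.56 to 8.16 and 9.64 to 12.11), but was 12.81 to 13.25 in withdrawn P7 cultures. Its part was not tested. Nrp1 kept these calls with the mean over its probe sets, at 2.68 for serum P7 minus HBEGF P7 and 2.73 for serum P7 minus MD. Nrp1 kept this call without withdrawn P7 replicate 3, at -2.79 for withdrawn P7 minus serum P7.

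Nrp2 was at 7.90, 7.68 and 7.51 in fresh P1 and 8.46, 7.95 and 7.45 in fresh P7 cells, at 9.06, 7.94 and 8.86 in HBEGF P1 and 10.65, 9.69 and 10.68 in HBEGF P7 cultures. It was at 10.36, 9.92 and 10.26 in serum P7, 11.10, 11.23 and 10.53 in withdrawn P7 and 11.83, 10.89 and 11.45 in MD cultures. The P7-derived and MD cultures were above all fresh arrays, whereas 1 HBEGF P1 array lay among the fresh ones. Nrp2 rose by 2.39 ± 0.34 (SE, adjusted p = 6.07e-05) in HBEGF P7 cultures against fresh P7 cells and rose by 3.69 ± 0.34 (SE, adjusted p = 2.19e-07) in MD cultures against fresh P1 cells. In MD cultures it was 2.77 ± 0.34 (SE, adjusted p = 6.46e-06) above HBEGF P1 cultures, a 6.82-fold difference. HBEGF P7 cultures were 1.72 ± 0.34 (SE, adjusted p = 0.0152) above HBEGF P1 cultures. This call did not hold without HBEGF P1 replicate 2 (log2 1.38, adjusted p = 0.0986), with only the compared groups in the model (log2 1.72, adjusted p = 0.301) and with the mean over its probe sets (log2 0.89, adjusted p = 0.0268). Serum P7 cultures were lower than MD cultures, with a difference of -1.21 ± 0.34 (SE, adjusted p = 0.0127). That call was lost without MD replicate 1 or serum P7 replicate 2 in turn (log2 from -1.08 to -0.99, adjusted p from 0.0545 to 0.0688) and with the mean over its probe sets (log2 -0.59, adjusted p = 0.0285). Nrp2 kept these calls with the mean over its probe sets, at 1.22 for HBEGF P7 minus fresh P7, 2.04 for MD minus fresh P1 and 1.58 for MD minus HBEGF P1. Its other probe set was not called by itself in MD against HBEGF P1 cultures, so the rise there rests on the probe set read here.

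Of the 10 membrane-bound semaphorins, 5 were called in some comparison (all genes: 37.8%), and all but Sema5a were highest in fresh P7 cells and lower in every culture. Sema6A binds plexin-A2 and plexin-A4, and Sema6D binds plexin-A1. Sema6a was at 12.88, 12.80 and 12.66 in fresh P1 and 13.13, 13.003 and 12.83 in fresh P7 cells, and at 11.07, 10.91 and 10.91 in HBEGF P1 and 10.71, 10.29 and 10.13 in HBEGF P7 cultures. It was at 11.01, 11.08 and 11.09 in MD, 10.77, 10.39 and 9.48 in serum P7 and 9.85, 9.37 and 8.39 in withdrawn P7 cultures. No cultured array reached a fresh one, and replicate 3 was the lowest of both the serum and the withdrawn groups. Sema6a fell by 1.82 ± 0.31 (SE, adjusted p = 0.000404) in HBEGF P1 cultures and fell by 2.61 ± 0.31 (SE, adjusted p = 9.77e-06) in HBEGF P7 cultures, the largest fall of any member there. In MD cultures it fell by 1.72 ± 0.31 (SE, adjusted p = 0.000265) against fresh P1 cells, while MD and HBEGF P1 cultures differed by only 0.10 ± 0.31 (SE, adjusted p = 0.825). Withdrawn P7 cultures were lower than HBEGF P7 cultures, with a difference of -1.17 ± 0.31 (SE, adjusted p = 0.0107). This call was lost without withdrawn P7 replicate 3 (log2 -0.76, adjusted p = 0.0617), with only the compared groups in the model (log2 -1.17, adjusted p = 0.099) and with the mean over its probe sets (log2 -0.58, adjusted p = 0.018). Sema6a kept this call with the mean over its probe sets, at -1.83 for HBEGF P7 minus fresh P7.

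Sema6d was at 12.84, 12.95 and 12.79 in fresh P1 and 13.31, 13.47 and 13.36 in fresh P7 cells, and at 11.85, 11.49 and 11.68 in HBEGF P1 and 11.61, 11.56 and 11.63 in HBEGF P7 cultures. It was lower still in the groups that had been in serum, with 10.88, 10.64 and 10.16 in serum P7, 10.85, 10.75 and 9.71 in withdrawn P7 and 9.89, 9.85 and 9.63 in MD cultures. The fresh, the HBEGF and the serum-treated arrays formed levels that did not overlap. Sema6d fell by 1.18 ± 0.23 (SE, adjusted p = 0.00125) in HBEGF P1 cultures, fell by 1.78 ± 0.23 (SE, adjusted p = 2.53e-05) in HBEGF P7 cultures and fell by 3.07 ± 0.23 (SE, adjusted p = 2.24e-08) in MD cultures against fresh cells, the last an 8.39-fold difference. Against the HBEGF cultures of the same age it fell by 1.89 ± 0.23 (SE, adjusted p = 6.4e-06) in MD and fell by 1.04 ± 0.23 (SE, adjusted p = 0.00374) in serum P7 cultures. The serum P7 call did not hold without serum P7 replicate 3 (log2 -0.84, adjusted p = 0.023) and with array medians aligned (log2 -0.99, adjusted p = 0.00503). Withdrawn P7 cultures stayed below HBEGF P7 cultures, with a difference of -1.16 ± 0.23 (SE, adjusted p = 0.00166). That call did not hold without withdrawn P7 replicate 3 (log2 -0.80, adjusted p = 0.00421) and with only the compared groups in the model (log2 -1.16, adjusted p = 0.0632). The oligodendrocyte progenitor mean ran the same way between HBEGF and serum-treated cultures. It was 9.43 to 9.82 in HBEGF P1 against 7.47 to 7.503 in MD, and 8.77 to 9.35 in HBEGF P7 against 7.63 to 8.16 in serum P7 cultures. Fresh cells, where Sema6d was highest, lay under the HBEGF cultures for this mean, at 8.26 to 8.46 (P1) and 8.28 to 8.58 (P7). The neuron mean was also lower in MD (7.66 to 7.88) than in HBEGF P1 cultures (8.74 to 9.07). It was 7.05 to 7.41 in serum P7 and 7.13 to 8.97 in HBEGF P7 cultures. The part of these cells was not tested.

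Sema4a, a ligand of plexin-B and plexin-D receptors, was the 1 member that changed between fresh P1 and fresh P7 cells. It was at 8.40, 8.66 and 8.97 in fresh P1 and 10.47, 10.35 and 9.97 in fresh P7 cells, without overlap, and rose by 1.59 ± 0.17 (SE, adjusted p = 5.27e-05), a 3.01-fold difference. In HBEGF cultures it was at 7.70, 7.56 and 7.75 from P1 and 7.83, 7.87 and 7.76 from P7 cells, and at 7.18, 7.07 and 7.06 in MD cultures. The HBEGF cultures of both ages lay side by side, below every fresh array. Sema4a fell by 2.44 ± 0.17 (SE, adjusted p = 1.97e-08) in HBEGF P7 cultures, fell by 1.57 ± 0.17 (SE, adjusted p = 1.22e-06) in MD cultures and fell by 1.002 ± 0.17 (SE, adjusted p = 0.000356) in HBEGF P1 cultures, each against fresh cells. The HBEGF P1 call did not hold without fresh P1 replicate 3, or without replicate 2 of HBEGF P1, (log2 from -0.95 to -0.85, adjusted p from 0.00273 to 0.00295) and with 32 added before the log (log2 -0.90, adjusted p = 0.000391). Sema4b showed a like order, from 11.16 ± 0.09 (SD, n = 3) in fresh P7 cells to 8.88 ± 0.40 (SD, n = 3) in withdrawn P7 cultures, and fell by 1.72 ± 0.23 (SE, adjusted p = 4.6e-05) in HBEGF P7 and fell by 1.16 ± 0.23 (SE, adjusted p = 0.000778) in MD cultures against fresh cells.

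Sema5a, a semaphorin with thrombospondin repeats, was lowest in MD cultures, at 5.30, 5.54 and 5.57 against 7.94, 7.46 and 7.58 in fresh P1 cells, 8.29, 7.39 and 7.54 in HBEGF P1 and 7.44, 7.38 and 7.95 in serum P7 cultures. The MD arrays lay below all others. Sema5a fell by 2.19 ± 0.45 (SE, adjusted p = 0.000997) in MD cultures against fresh P1 cells and fell by 2.27 ± 0.45 (SE, adjusted p = 0.000786) against HBEGF P1 cultures, and serum P7 cultures were 2.12 ± 0.45 (SE, adjusted p = 0.00214) above MD cultures. With the mean over its probe sets the calls against fresh P1 cells (-0.58) and HBEGF P1 cultures (-0.70) were lost, and so was that against serum P7 cultures (0.79). The members Sema4d, Sema4f, Sema4g, Sema6b and Sema6c were not called in any comparison.

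Of 8 plexins, the semaphorin receptors, 5 were called in some comparison (all genes: 37.8%), and each call of a culture against fresh or HBEGF cells was a fall. Plxnb1, the receptor of Sema4D, was at 11.81, 11.96 and 11.91 in fresh P1 and 12.46, 12.55 and 12.52 in fresh P7 cells. It was at 11.46, 11.49 and 11.41 in HBEGF P1, 11.27, 10.35 and 11.22 in HBEGF P7, 10.50, 10.24 and 9.37 in serum P7, 10.60, 10.34 and 8.90 in withdrawn P7 and 9.41, 9.498 and 9.18 in MD cultures. Fresh arrays were above all cultured ones, and replicate 3 of the serum and withdrawn groups was the lowest of its group. Plxnb1 fell by 1.56 ± 0.35 (SE, adjusted p = 0.00345) in HBEGF P7 cultures, fell by 2.53 ± 0.35 (SE, adjusted p = 2.08e-05) in MD cultures against fresh P1 cells and fell by 2.09 ± 0.35 (SE, adjusted p = 0.00016) in MD against HBEGF P1 cultures. Plxna2, a receptor of Sema6A and of Sema3 complexes, was at 9.39, 9.41 and 9.26 in HBEGF P1 and 9.60, 9.66 and 9.18 in HBEGF P7 cultures, close to the fresh cells, and at 7.77, 8.004 and 8.13 in serum P7, 7.66, 7.57 and 7.501 in withdrawn P7 and 8.23, 7.72 and 7.81 in MD cultures. All arrays of the serum-treated groups were below all fresh and HBEGF arrays. It fell by 1.44 ± 0.16 (SE, adjusted p = 2.81e-06) in MD against HBEGF P1 cultures, fell by 1.51 ± 0.16 (SE, adjusted p = 8.71e-06) in serum P7 and fell by 1.90 ± 0.16 (SE, adjusted p = 1.65e-06) in withdrawn P7 against HBEGF P7 cultures. Against fresh P1 cells it fell by 1.26 ± 0.16 (SE, adjusted p = 8.88e-06) in MD cultures. For Plxna2 too the progenitor mean lay lower in MD (7.47 to 7.503) and serum P7 (7.63 to 8.16) than in HBEGF P1 (9.43 to 9.82) and HBEGF P7 cultures (8.77 to 9.35). Fresh cells, with Plxna2 close to the HBEGF cultures, had a progenitor mean of 8.26 to 8.46 at P1 and 8.28 to 8.58 at P7. The neuron mean was also lower in MD (7.66 to 7.88) than in HBEGF P1 cultures (8.74 to 9.07). It was 7.05 to 7.41 in serum P7 and 7.13 to 8.97 in HBEGF P7 cultures. The part of these cells was not tested. Plxnb1 kept these calls with the mean over its probe sets, at -1.71 for MD minus fresh P1 and -1.39 for MD minus HBEGF P1.

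Plxnc1, the receptor of Sema7A, was lowest in MD cultures, at 7.06, 7.08 and 6.64 against 9.26, 9.54 and 9.76 in HBEGF P1 and 9.31, 9.23 and 8.79 in serum P7 cultures. The MD arrays lay below all others. It fell by 2.84 ± 0.33 (SE, adjusted p = 2.98e-06) in MD cultures against fresh P1 cells and fell by 2.59 ± 0.33 (SE, adjusted p = 9.9e-06) against HBEGF P1 cultures, and was 2.19 ± 0.33 (SE, adjusted p = 0.000105) higher in serum P7 than in MD cultures. Plxna4 fell by 1.36 ± 0.32 (SE, adjusted p = 0.00488) in HBEGF P7 cultures and fell by 1.45 ± 0.32 (SE, adjusted p = 0.0016) in MD cultures against fresh cells. The HBEGF P7 call did not hold with only the compared groups in the model (log2 -1.36, adjusted p = 0.0519) and with the mean over its probe sets (log2 -0.97, adjusted p = 0.000305). The MD call did not hold with the mean over its probe sets (log2 -0.98, adjusted p = 0.000138). Plxna3, a receptor with neuropilin-2 for Sema3F, fell by 1.01 ± 0.16 (SE, adjusted p = 0.000266) in serum P7 against HBEGF P7 cultures, at the edge of the limit. The call was lost without HBEGF P7 replicate 1 or serum P7 replicate 2 in turn (log2 from -0.96 to -0.90, adjusted p from 0.00193 to 0.00212), with array medians aligned (log2 -0.96, adjusted p = 0.000427), with 32 added before the log (log2 -0.92, adjusted p = 0.000297) and with the mean over its probe sets (log2 -0.59, adjusted p = 0.014). Group means of Plxna1 ran from 8.96 to 9.497, of Plxnb2 from 11.43 to 11.92 and of Plxnd1, the Sema3E receptor, from 7.19 to 7.68, and none of these was called.

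Among the ephrins, Efnb3 and Efna1 fell in MD cultures and were higher in serum P7 than in MD cultures. Ephrin-B3 is known as a midline barrier of the spinal cord, and ephrin-A1 is the main ligand of EphA2. Efnb3 was at 9.22, 9.37 and 9.30 in fresh P1 cells, 9.04, 8.80 and 8.95 in HBEGF P1, 8.99, 7.67 and 9.14 in HBEGF P7 and 6.43, 6.66 and 6.27 in MD cultures. It was at 7.19, 7.93 and 10.83 in serum P7 and 10.52, 10.80 and 11.45 in withdrawn P7 cultures. The MD arrays were below all others, and serum P7 replicate 3 lay within the level of the withdrawn group. Efnb3 fell by 2.84 ± 0.61 (SE, adjusted p = 0.00135) in MD cultures against fresh P1 cells and fell by 2.47 ± 0.61 (SE, adjusted p = 0.00414) against HBEGF P1 cultures. It was 2.19 ± 0.61 (SE, adjusted p = 0.0128) higher in serum P7 than in MD cultures. That call was lost with only the compared groups in the model (log2 2.19, adjusted p = 0.122). In withdrawn against serum P7 cultures it rose by 2.27 ± 0.61 (SE, adjusted p = 0.0309), with overlapping arrays. This call did not hold without serum P7 replicate 1 or 2 or withdrawn P7 replicate 1, 2 or 3 in turn (log2 from 1.54 to 2.48, adjusted p from 0.0577 to 0.165) and with only the compared groups in the model (log2 2.27, adjusted p = 0.199). Withdrawn P7 cultures were 2.32 ± 0.61 (SE, adjusted p = 0.0109) above HBEGF P7 cultures. The last call did not hold without HBEGF P7 replicate 2 (log2 1.86, adjusted p = 0.0597). The fibroblast and meningeal mean was 12.01, 12.52 and 13.39 in the serum P7 arrays and 7.56 to 8.16 in MD cultures, and the microglia and macrophage mean was 5.46 to 5.78 in serum P7 and 6.84 to 7.95 in withdrawn P7 cultures. The part of these cells was not tested. Efnb3 kept this call without serum P7 replicate 1, at 2.93 for serum P7 minus MD. Efnb3 kept these calls without serum P7 replicate 3, at 3.37 for withdrawn P7 minus serum P7 and 1.10 for serum P7 minus MD.

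Efna1 was at 7.58, 7.55 and 8.01 in fresh P1 cells, 7.56, 6.93 and 7.21 in HBEGF P1, 7.26, 5.97 and 6.78 in HBEGF P7, 6.81, 7.25 and 7.78 in serum P7, 7.57, 7.98 and 8.90 in withdrawn P7 and 6.03, 6.30 and 6.11 in MD cultures. The MD arrays overlapped only the lowest HBEGF P7 array, and withdrawn replicate 3 was the highest of all. It fell by 1.57 ± 0.33 (SE, adjusted p = 0.00118) in MD cultures against fresh P1 cells and fell by 1.09 ± 0.33 (SE, adjusted p = 0.0162) against HBEGF P1 cultures. The second of these calls did not hold without MD replicate 1 or HBEGF P1 replicate 1 in turn (log2 from -1.03 to -0.93, adjusted p from 0.0505 to 0.0722), with array medians aligned (log2 -0.98, adjusted p = 0.0253), with 32 added before the log (log2 -0.83, adjusted p = 0.0308) and with the mean over its probe sets (log2 -0.82, adjusted p = 0.0388). Serum P7 cultures were 1.13 ± 0.33 (SE, adjusted p = 0.0172) above MD cultures. That call did not hold without MD replicate 1 or serum P7 replicate 3 in turn (log2 from 0.88 to 1.08, adjusted p from 0.0569 to 0.0929), with 32 added before the log (log2 0.87, adjusted p = 0.0311) and with the mean over its probe sets (log2 0.87, adjusted p = 0.035). Withdrawn P7 cultures were 1.48 ± 0.33 (SE, adjusted p = 0.00415) above HBEGF P7 cultures. This call was lost with only the compared groups in the model (log2 1.48, adjusted p = 0.0829).

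Efna5, the repellent of retinal axons, fell by 1.37 ± 0.28 (SE, adjusted p = 0.00198) in HBEGF P1 cultures against fresh P1 cells, from 8.29 ± 0.26 (SD, n = 3) to 6.92 ± 0.31 (SD, n = 3), without overlap. The call did not hold with the mean over its probe sets (log2 -0.69, adjusted p = 0.00457). Efnb1 fell by 1.26 ± 0.24 (SE, adjusted p = 0.000509) in MD cultures against fresh P1 cells, from 9.49 ± 0.05 (SD, n = 3) to 8.23 ± 0.31 (SD, n = 3). The call was lost with the mean over its probe sets (log2 -0.94, adjusted p = 0.00114). Efna4 differed among groups by the F test, from 7.66 ± 0.15 (SD, n = 3) in fresh P1 cells to 8.68 ± 0.19 (SD, n = 3) in withdrawn P7 cultures, and was called in none of the 10 comparisons.

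Of 8 EphA receptors, Epha4 and Epha5 fell in HBEGF cultures of both ages and in MD cultures against fresh cells, Epha3 fell in MD cultures, and Epha2 rose in MD cultures. Epha2 was at 7.60, 7.83 and 7.56 in fresh P1 and 7.55, 7.84 and 8.35 in fresh P7 cells, and at 6.57, 6.06 and 6.03 in HBEGF P1 and 6.20, 6.89 and 6.35 in HBEGF P7 cultures. It was at 7.51, 7.67 and 6.96 in serum P7, 6.17, 6.43 and 6.99 in withdrawn P7 and 11.05, 9.86 and 10.15 in MD cultures. The MD arrays were above all others, and the HBEGF arrays were below all fresh ones. Epha2 fell by 1.44 ± 0.30 (SE, adjusted p = 0.00243) in HBEGF P1 and fell by 1.44 ± 0.30 (SE, adjusted p = 0.00224) in HBEGF P7 cultures against fresh cells. In MD cultures it rose by 2.69 ± 0.30 (SE, adjusted p = 2.39e-06) against fresh P1 cells and rose by 4.13 ± 0.30 (SE, adjusted p = 3.47e-08) against HBEGF P1 cultures, a 17.6-fold difference. Serum P7 cultures of panned cells were at 0.90 against HBEGF P7 cultures (adjusted p = 0.0435), under the limit, and lower than MD cultures, with a difference of -2.97 ± 0.30 (SE, adjusted p = 2.81e-06). Epha2 and Efna1, receptor and ligand, took opposite directions in MD cultures.

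Epha5 was at 10.57, 10.38 and 10.01 in fresh P1 and 10.11, 9.61 and 9.82 in fresh P7 cells, at 8.19, 8.26 and 8.64 in HBEGF P1 and 8.21, 8.72 and 8.19 in HBEGF P7 cultures. It was at 7.60, 7.36 and 6.04 in serum P7, 6.82, 6.496 and 5.88 in withdrawn P7 and 7.17, 7.61 and 7.37 in MD cultures. The fresh arrays were above all cultured ones, and replicate 3 was the lowest of the serum and of the withdrawn group. Epha5 fell by 1.96 ± 0.32 (SE, adjusted p = 0.000337) in HBEGF P1, fell by 1.47 ± 0.32 (SE, adjusted p = 0.00302) in HBEGF P7 and fell by 2.94 ± 0.32 (SE, adjusted p = 1.86e-06) in MD cultures, each against fresh cells of the same age. It fell by 1.98 ± 0.32 (SE, adjusted p = 0.000441) in withdrawn P7 and fell by 1.37 ± 0.32 (SE, adjusted p = 0.00604) in serum P7 against HBEGF P7 cultures. The serum P7 call was lost without serum P7 replicate 3 (log2 -0.89, adjusted p = 0.0256) and with only the compared groups in the model (log2 -1.37, adjusted p = 0.0973).

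Epha4, which binds ephrins of both classes, was at 11.82, 11.51 and 11.50 in fresh P1 cells, 10.60, 10.52 and 10.49 in HBEGF P1 and 8.94, 8.73 and 8.82 in MD cultures, and these 3 groups did not overlap. It fell by 2.77 ± 0.27 (SE, adjusted p = 5.1e-07) in MD cultures against fresh P1 cells and fell by 1.70 ± 0.27 (SE, adjusted p = 0.000104) against HBEGF P1 cultures. It fell by 1.65 ± 0.27 (SE, adjusted p = 0.000271) in HBEGF P7 cultures against fresh P7 cells and fell by 1.07 ± 0.27 (SE, adjusted p = 0.00929) in HBEGF P1 cultures against fresh P1 cells. The HBEGF P1 call was lost without fresh P1 replicate 1 (log2 -0.97, adjusted p = 0.0421). Epha3 fell by 2.96 ± 0.58 (SE, adjusted p = 0.000621) in MD cultures against fresh P1 cells, from 8.62 ± 0.10 (SD, n = 3) to 5.66 ± 0.56 (SD, n = 3), and fell by 1.59 ± 0.58 (SE, adjusted p = 0.0411) against HBEGF P1 cultures. The second call did not hold without MD replicate 1 or 2 or HBEGF P1 replicate 1, 2 or 3 in turn (log2 from -1.76 to -1.28, adjusted p from 0.0559 to 0.148), with 32 added before the log (log2 -1.15, adjusted p = 0.0576) and with the mean over its probe sets (log2 -0.67, adjusted p = 0.136). In HBEGF P7 cultures Epha3 was at 6.80, 4.94 and 8.48, widely spread and lowest in replicate 2. Epha6, Epha7, Epha8 and Epha10 lay under the median probe set in all groups and were not called. Epha3 kept this call with 32 added before the log, at -2.35 for MD minus fresh P1. Epha3 kept this call with the mean over its probe sets, at -1.74 for MD minus fresh P1.

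**Figure D3:**
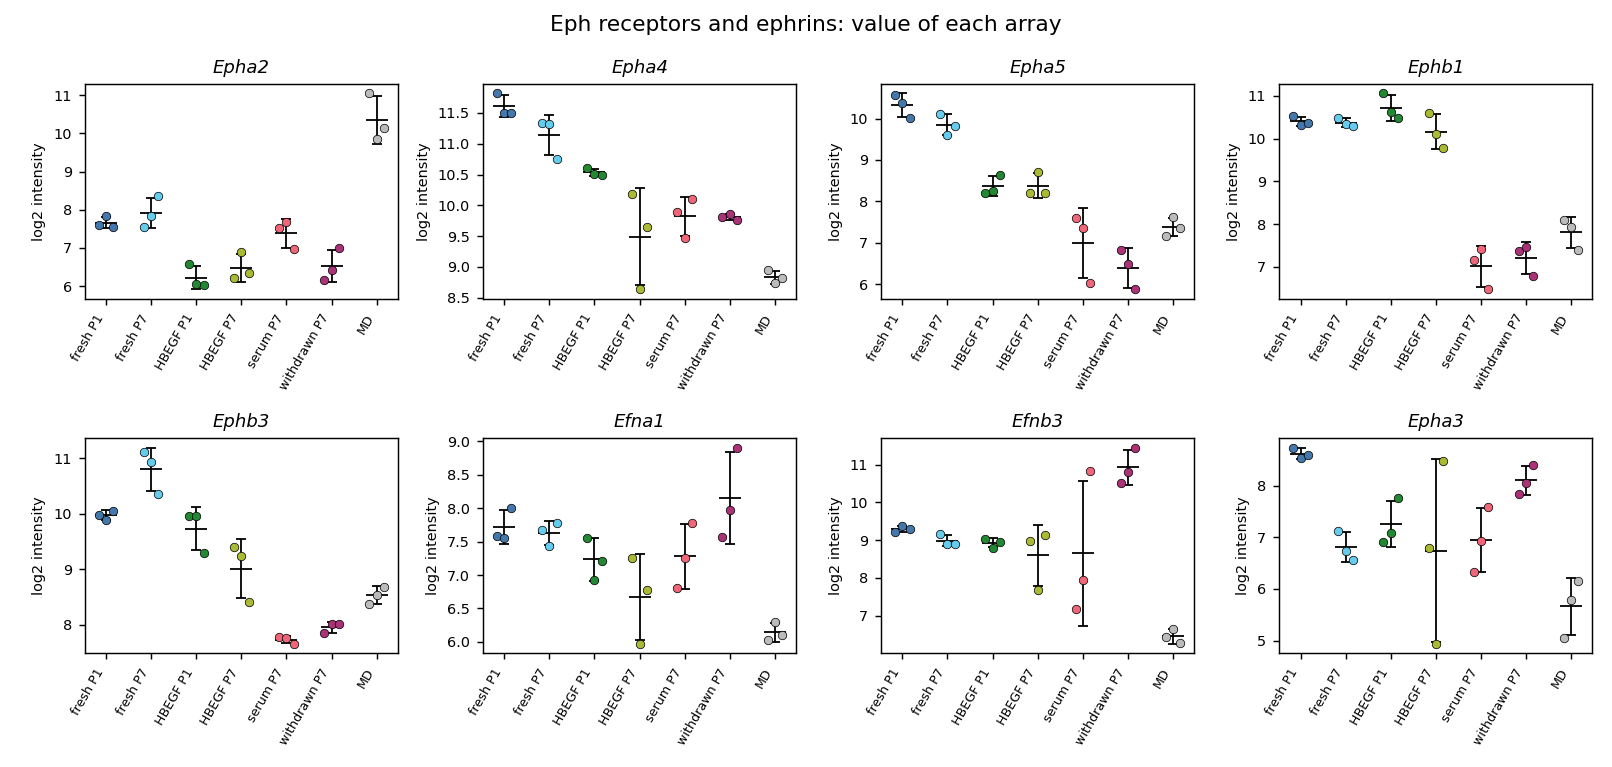
Log2 intensity (vertical axis) of 8 Eph receptors and ephrins in the 7 groups (horizontal axis), with 1 point per array, the mean as a bar and the SD of 3 arrays as whiskers. Epha2 is highest in MD cultures, Ephb1 and Ephb3 are low in the serum P7, withdrawn P7 and MD cultures, and Efnb3 spreads widely in serum P7 cultures.

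Ephb1 and Ephb3, receptors of transmembrane ephrins, were the Eph receptors that fell in all 3 groups with a history of serum against HBEGF cultures of the same age. Ephb1 was at 10.52, 10.32 and 10.37 in fresh P1, 10.49, 10.34 and 10.29 in fresh P7 cells, 11.05, 10.63 and 10.47 in HBEGF P1 and 10.59, 10.12 and 9.78 in HBEGF P7 cultures. It was at 7.16, 7.41 and 6.47 in serum P7, 7.38, 7.46 and 6.78 in withdrawn P7 and 8.10, 7.93 and 7.39 in MD cultures. The highest serum-treated array lay far under the lowest of the others. Ephb1 fell by 3.15 ± 0.26 (SE, adjusted p = 7.66e-07) in serum P7 against HBEGF P7 cultures, an 8.86-fold difference, and fell by 2.91 ± 0.26 (SE, adjusted p = 2.57e-07) in MD against HBEGF P1 cultures. In withdrawn P7 cultures it fell by 2.95 ± 0.26 (SE, adjusted p = 2.49e-06) against HBEGF P7 cultures, and withdrawn and serum P7 cultures differed by 0.19 ± 0.26 (SE, adjusted p = 0.784). Against fresh P1 cells Ephb1 in MD cultures fell by 2.60 ± 0.26 (SE, adjusted p = 6.04e-07). HBEGF cultures and fresh cells differed by 0.32 ± 0.26 (SE, adjusted p = 0.478) from P1 and -0.21 ± 0.26 (SE, adjusted p = 0.635) from P7, and neither was called. As with Sema6d, the progenitor mean was higher in HBEGF P1 (9.43 to 9.82) than in MD cultures (7.47 to 7.503). It was also higher in HBEGF P7 (8.77 to 9.35) than in serum P7 cultures (7.63 to 8.16). Fresh cells, with Ephb1 near its level in HBEGF cultures, had a progenitor mean of 8.26 to 8.46 at P1 and 8.28 to 8.58 at P7. The neuron mean was also higher in HBEGF P1 (8.74 to 9.07) than in MD cultures (7.66 to 7.88). It was 7.13 to 8.97 in HBEGF P7 and 7.05 to 7.41 in serum P7 cultures. The part of these cells was not tested.

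Ephb3 was at 9.98, 9.88 and 10.06 in fresh P1 and 11.12, 10.93 and 10.36 in fresh P7 cells, and at 9.95, 9.96 and 9.29 in HBEGF P1 and 9.40, 9.24 and 8.40 in HBEGF P7 cultures. It was at 7.78, 7.75 and 7.66 in serum P7, 7.84, 8.01 and 8.004 in withdrawn P7 and 8.37, 8.54 and 8.69 in MD cultures. Serum P7 and withdrawn P7 arrays were below all others. Ephb3 fell by 1.20 ± 0.23 (SE, adjusted p = 0.000616) in MD against HBEGF P1 cultures and fell by 1.28 ± 0.23 (SE, adjusted p = 0.000955) in serum P7 against HBEGF P7 cultures. It also fell by 1.06 ± 0.23 (SE, adjusted p = 0.00363) in withdrawn P7 against HBEGF P7 cultures. This last call was lost without HBEGF P7 replicate 1 or 2 in turn (log2 from -0.95 to -0.87, adjusted p from 0.0207 to 0.0209), with 32 added before the log (log2 -0.98, adjusted p = 0.00534) and with only the compared groups in the model (log2 -1.06, adjusted p = 0.057). Against fresh cells it fell by 1.79 ± 0.23 (SE, adjusted p = 3.01e-05) in HBEGF P7 and fell by 1.44 ± 0.23 (SE, adjusted p = 0.000101) in MD cultures. Ephb4 and Ephb6 differed among groups by the F test but were called in none of the 10 comparisons. Ephb4 ran from 7.41 ± 0.09 (SD, n = 3) in fresh P1 cells to 9.08 ± 0.31 (SD, n = 3) in withdrawn P7 cultures, and Ephb6 from 6.90 ± 0.13 (SD, n = 3) in MD cultures to 7.93 ± 0.31 (SD, n = 3) in fresh P7 cells.

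Slit2 and its receptor Robo2 were lower in HBEGF P1 cultures than in either fresh P1 cells or MD cultures. Slit2 was at 9.21, 9.07 and 8.55 in fresh P1 cells, 8.07, 7.64 and 6.78 in HBEGF P1 and 8.92, 8.66 and 8.81 in MD cultures, and the HBEGF P1 arrays were below both other groups. It fell by 1.45 ± 0.46 (SE, adjusted p = 0.0327) in HBEGF P1 cultures. The call did not hold without fresh P1 replicate 1 or 2 or HBEGF P1 replicate 2 or 3 in turn (log2 from -1.52 to -1.09, adjusted p from 0.0612 to 0.157) and with the mean over its probe sets (log2 -0.81, adjusted p = 0.0262). In MD cultures it was 1.30 ± 0.46 (SE, adjusted p = 0.0338) above HBEGF P1 cultures. That call was lost without MD replicate 1, 2 or 3 or HBEGF P1 replicate 2 or 3 in turn (log2 from 0.94 to 1.37, adjusted p from 0.0563 to 0.155) and with the mean over its probe sets (log2 0.78, adjusted p = 0.0197). In HBEGF P7 cultures Slit2 was at 10.19, 7.96 and 8.49, with replicate 1 far above the others, and no comparison with that group was called. Robo2 was at 9.45, 8.90 and 8.91 in fresh P1 cells, 7.46, 7.23 and 7.80 in HBEGF P1 and 8.70, 8.79 and 8.58 in MD cultures, again with the HBEGF P1 arrays below both. It fell by 1.59 ± 0.29 (SE, adjusted p = 0.00074) in HBEGF P1 cultures against fresh P1 cells and rose by 1.19 ± 0.29 (SE, adjusted p = 0.00359) in MD against HBEGF P1 cultures. The second call was lost with the mean over its probe sets (log2 0.97, adjusted p = 0.00083). Slit1, Slit3, Robo1 and Robo3 were not called.

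Ntng1 had the largest rise of any member, and was near the bottom of the scale in fresh cells and HBEGF P1 cultures. It was at 5.04, 4.84 and 4.75 in fresh P1 and 4.69, 4.16 and 4.47 in fresh P7 cells, and at 5.74, 4.87 and 5.46 in HBEGF P1 and 6.98, 6.15 and 7.12 in HBEGF P7 cultures. It was at 11.36, 10.99 and 9.04 in serum P7, 8.90, 8.66 and 8.54 in withdrawn P7 and 10.04, 10.57 and 10.69 in MD cultures. All serum-treated arrays were above all HBEGF arrays, and serum P7 replicate 3 lay nearer the withdrawn group than its own. Ntng1 rose by 5.08 ± 0.43 (SE, adjusted p = 1.57e-07) in MD against HBEGF P1 cultures and rose by 3.71 ± 0.43 (SE, adjusted p = 1.93e-05) in serum P7 against HBEGF P7 cultures. Against fresh cells it rose by 5.56 ± 0.43 (SE, adjusted p = 3.3e-08) in MD and rose by 2.31 ± 0.43 (SE, adjusted p = 0.000784) in HBEGF P7 cultures. In withdrawn against serum P7 cultures it fell by 1.77 ± 0.43 (SE, adjusted p = 0.0189), yet withdrawn P7 cultures stayed 1.95 ± 0.43 (SE, adjusted p = 0.00371) above HBEGF P7 cultures. The call against serum P7 cultures did not hold without serum P7 replicate 1 or 2 or withdrawn P7 replicate 2 in turn (log2 from -1.75 to -1.32, adjusted p from 0.0643 to 0.109) and with only the compared groups in the model (log2 -1.77, adjusted p = 0.136). Ntng1 kept these calls with 32 added before the log, at 1.39 for HBEGF P7 minus fresh P7, 4.53 for MD minus fresh P1 and 4.27 for MD minus HBEGF P1. Ntng1 kept these calls without serum P7 replicate 3, at 4.43 for serum P7 minus HBEGF P7 and -2.48 for withdrawn P7 minus serum P7.

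Lrrc4c, the gene of the netrin-G1 ligand and no member here, went the other way. Its group mean was 9.09 ± 0.42 (SD, n = 3) in fresh P1 and 8.77 ± 0.36 (SD, n = 3) in fresh P7 cells, 8.38 ± 0.58 (SD, n = 3) in HBEGF P1 and 6.98 ± 0.78 (SD, n = 3) in HBEGF P7 cultures. It was 5.12 ± 0.16 (SD, n = 3) in serum P7, 4.85 ± 0.35 (SD, n = 3) in withdrawn P7 and 5.39 ± 0.26 (SD, n = 3) in MD cultures. Lrrc4c fell by 2.99 ± 0.35 (SE, adjusted p = 4.12e-06) in MD against HBEGF P1 cultures and fell by 1.86 ± 0.35 (SE, adjusted p = 0.00115) in serum P7 against HBEGF P7 cultures. It was read as part of a list of other guidance genes.

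Ntn1, the gene of netrin-1, fell in panned cells grown in serum and was not called in MD cultures. It was at 8.88, 8.78 and 8.59 in HBEGF P1, 8.33, 9.85 and 7.43 in HBEGF P7 and 9.23, 8.16 and 8.25 in MD cultures. It was at 6.05, 6.43 and 6.44 in serum P7 and 6.29, 6.56 and 6.87 in withdrawn P7 cultures, below every array of the other groups, with the HBEGF P7 arrays widely spread. Ntn1 fell by 2.23 ± 0.43 (SE, adjusted p = 0.00152) in serum P7 and fell by 1.96 ± 0.43 (SE, adjusted p = 0.00366) in withdrawn P7 against HBEGF P7 cultures. The first call did not hold with only the compared groups in the model (log2 -2.23, adjusted p = 0.067) and with the mean over its probe sets (log2 -0.56, adjusted p = 0.0172). The second call did not hold with only the compared groups in the model (log2 -1.96, adjusted p = 0.0817) and with the mean over its probe sets (log2 -0.43, adjusted p = 0.0491). Serum P7 cultures were also lower than MD cultures, with a difference of -2.24 ± 0.43 (SE, adjusted p = 0.000932), and MD and HBEGF P1 cultures differed by -0.20 ± 0.43 (SE, adjusted p = 0.746). The call against MD cultures did not hold with the mean over its probe sets (log2 -0.77, adjusted p = 0.0013). Ntn1 kept these calls without HBEGF P7 replicate 2, at -1.58 for serum P7 minus HBEGF P7 and -1.31 for withdrawn P7 minus HBEGF P7.

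Of the netrin receptors, Unc5c and Unc5b, which mediate repulsion, were called, while Dcc and Unc5a were not. Unc5c was at 5.998, 6.26 and 5.58 in fresh P1 cells, 7.33, 6.21 and 6.68 in HBEGF P1 and 6.97, 7.07 and 7.59 in HBEGF P7 cultures. It was at 8.83, 8.39 and 8.34 in serum P7, 8.97, 8.86 and 8.76 in withdrawn P7 and 9.37, 9.14 and 9.26 in MD cultures, all above every fresh and HBEGF array. Unc5c rose by 2.52 ± 0.25 (SE, adjusted p = 8.6e-07) in MD against HBEGF P1 cultures, rose by 1.31 ± 0.25 (SE, adjusted p = 0.00142) in serum P7 and rose by 1.65 ± 0.25 (SE, adjusted p = 0.00025) in withdrawn P7 against HBEGF P7 cultures. Against fresh P1 cells it rose by 3.31 ± 0.25 (SE, adjusted p = 2.79e-08) in MD cultures, a 9.91-fold difference. Unc5b rose by 1.64 ± 0.26 (SE, adjusted p = 8.55e-05) in MD against HBEGF P1 cultures, from 7.12 ± 0.36 (SD, n = 3) to 8.76 ± 0.13 (SD, n = 3), without overlap. Its other probe set was not called by itself there, though the call held under all alternatives. Unc5b was lower in serum P7 than in MD cultures, with a difference of -1.11 ± 0.26 (SE, adjusted p = 0.00373). That call did not hold without serum P7 replicate 3 (log2 -0.74, adjusted p = 0.0187), with 32 added before the log (log2 -0.99, adjusted p = 0.00282) and with the mean over its probe sets (log2 -0.66, adjusted p = 0.00604).

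**Figure D4:**
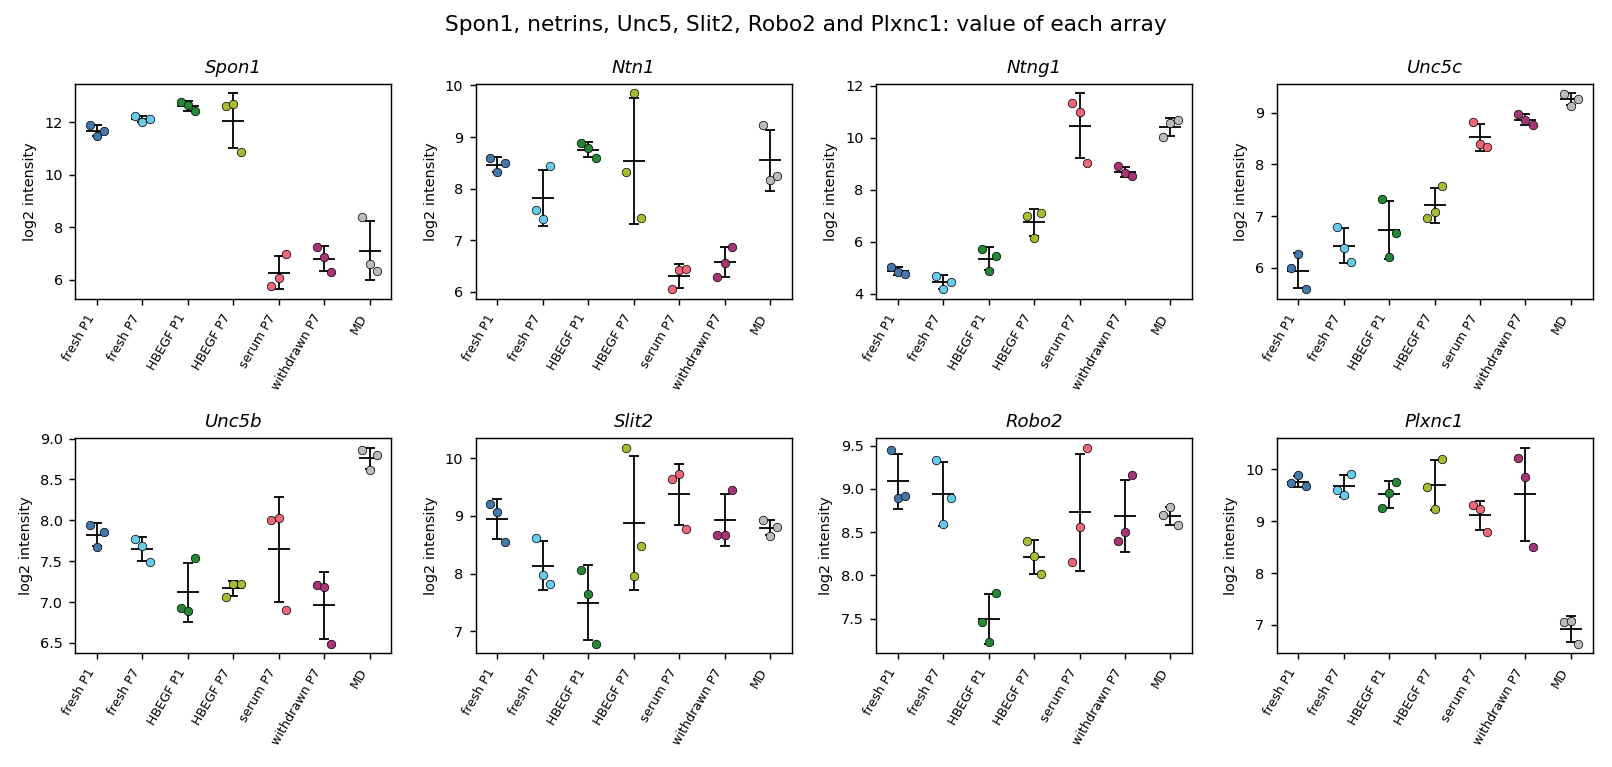
Log2 intensity (vertical axis) of Spon1, Ntn1, Ntng1, Unc5c, Unc5b, Slit2, Robo2 and Plxnc1 in the 7 groups (horizontal axis), with 1 point per array, the mean as a bar and the SD of 3 arrays as whiskers. Spon1 is low and Ntng1 and Unc5c are high in the serum P7, withdrawn P7 and MD cultures.

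Spon1 had the largest fall of any member, and it fell in every group with a history of serum against HBEGF cultures of the same age. It was at 11.88, 11.47 and 11.68 in fresh P1 and 12.24, 11.99 and 12.14 in fresh P7 cells, and at 12.78, 12.65 and 12.41 in HBEGF P1 and 12.63, 12.68 and 10.85 in HBEGF P7 cultures. It was at 5.74, 6.07 and 6.97 in serum P7, 7.23, 6.87 and 6.30 in withdrawn P7 and 8.38, 6.60 and 6.33 in MD cultures. No serum-treated array came near the fresh or HBEGF arrays, of which HBEGF P7 replicate 3 was the lowest, and MD replicate 1 was the highest of the serum-treated ones. Spon1 fell by 5.79 ± 0.49 (SE, adjusted p = 1.03e-06) in serum P7 against HBEGF P7 cultures, a 55.4-fold difference, and fell by 5.51 ± 0.49 (SE, adjusted p = 2.87e-07) in MD against HBEGF P1 cultures. It fell by 4.57 ± 0.49 (SE, adjusted p = 1.51e-06) in MD cultures against fresh P1 cells and fell by 5.25 ± 0.49 (SE, adjusted p = 4.53e-06) in withdrawn P7 against HBEGF P7 cultures. Withdrawn and serum P7 cultures differed by 0.54 ± 0.49 (SE, adjusted p = 0.644). The progenitor mean was likewise higher in HBEGF than in serum-treated cultures, at 9.43 to 9.82 in HBEGF P1 and 8.77 to 9.35 in HBEGF P7 cultures. It was 7.63 to 8.16 in serum P7, 7.65 to 8.40 in withdrawn P7 and 7.47 to 7.503 in MD cultures. Fresh cells, where Spon1 was also high, had a progenitor mean of 8.26 to 8.46 at P1 and 8.28 to 8.58 at P7. The neuron mean was 8.74 to 9.07 in HBEGF P1 and 7.66 to 7.88 in MD cultures. It was 7.13 to 8.97 in HBEGF P7, 7.05 to 7.41 in serum P7 and 6.76 to 7.27 in withdrawn P7 cultures. The astrocyte mean was 11.01 to 11.31 in MD and 12.15 to 12.34 in HBEGF P1 cultures. In serum P7 (12.07 to 12.35) and withdrawn P7 cultures (12.30 to 12.61) it was not below the HBEGF P7 range (11.95 to 12.48). Their part was not tested. HBEGF cultures and fresh cells were not called apart, with 0.94 ± 0.49 (SE, adjusted p = 0.219) from P1 and -0.07 ± 0.49 (SE, adjusted p = 0.948) from P7. Spon1 kept these calls without MD replicate 1, at -5.21 for MD minus fresh P1 and -6.15 for MD minus HBEGF P1. Spon1 kept these calls without HBEGF P7 replicate 3, at -6.39 for serum P7 minus HBEGF P7 and -5.85 for withdrawn P7 minus HBEGF P7.

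The withdrawn P7 cultures showed how these genes stood after 7 further days with HBEGF and no serum, beside the serum P7 cultures. Both were set against the same HBEGF P7 arrays, so their values are not independent. Spon1 differed from HBEGF P7 cultures by -5.79 in serum P7 and -5.25 in withdrawn P7 cultures, Ephb1 by -3.15 and -2.95, and Plxna2 by -1.51 and -1.90. Ntn1 differed by -2.23 and -1.96, and Unc5c by 1.31 and 1.65. The differences of Ntng1 were 3.71 and 1.95, those of Nrp1 3.44 and 1.37, and those of Sema3b -1.35 and 1.33. The direct comparison of withdrawn with serum P7 cultures called Nrp1, Ntng1, Sema3b and Efnb3 and no other member. Calls of Nrp1, Ntng1, Sema3b and Efnb3 that depend on single arrays are given with each gene above.

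MD and serum P7 cultures were each set against HBEGF cultures of the same age, but MD cultures also differ from HBEGF P1 cultures in how the cells were obtained. Called lower in both were Spon1, Ephb1, Plxna2, Ephb3 and Sema6d, and called higher in both were Ntng1 and Unc5c. Lhfpl3, the only oligodendrocyte progenitor marker called lower in both, fell by 4.37 in MD and fell by 3.98 in serum P7 cultures. Pdgfra, of the same list, fell in MD but was higher in serum P7 than in HBEGF P7 cultures. The part of progenitors, and of neurons, was not tested. The difference between these differences was itself tested, and it was called for 12 members, 5 with a higher and 7 with a lower value in panned P7 cells, where 5.02% and 6.29% of all genes were called (11.3% in all). Epha2 had the lowest value of the difference, with 4.13 for MD minus HBEGF P1 cultures and 0.90 in serum P7 against HBEGF P7 cultures, a difference of -3.23 ± 0.43 (SE, adjusted p = 0.000174). Nrp1 had the highest, with 0.24 and 3.44, a difference of 3.20 ± 0.67 (SE, adjusted p = 0.00418). The rise of Nrp2, Sema3e and Sema3c in MD cultures (2.77, 2.61 and 2.49) was not matched in serum P7 cultures (-0.16, 0.54 and 0.75), with differences of -2.93 ± 0.47 (SE, adjusted p = 0.000738), -2.07 ± 0.54 (SE, adjusted p = 0.0159) and -1.74 ± 0.31 (SE, adjusted p = 0.00149). The falls of Epha4, Plxnc1 and Sema5a in MD cultures (-1.70, -2.59 and -2.27) stood beside 0.33, -0.59 and -0.26 in serum P7 cultures, with differences of 2.04 ± 0.38 (SE, adjusted p = 0.00215), 2.00 ± 0.46 (SE, adjusted p = 0.00793) and 2.01 ± 0.64 (SE, adjusted p = 0.0473). Nrp1 kept this call with the mean over its probe sets, at 2.28 for the difference of both responses. Nrp2 kept this call with the mean over its probe sets, at -1.48 for the difference of both responses. The other probe set of Nrp2 was not called by itself in this difference, nor was that of Nrp1.

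The difference was also called for Efna1, at 1.70 ± 0.47 (SE, adjusted p = 0.0231), for Ntn1, at -2.03 ± 0.61 (SE, adjusted p = 0.0362), for Unc5b, at -1.16 ± 0.36 (SE, adjusted p = 0.0432), and for Unc5c, at -1.21 ± 0.36 (SE, adjusted p = 0.0323). The count of 12 was 7 without MD replicate 1. The call of Sema5a did not hold without MD replicate 1, 2 or 3, HBEGF P1 replicate 1, 2 or 3, HBEGF P7 replicate 2 or serum P7 replicate 1, 2 or 3 in turn (log2 from 1.34 to 2.19, adjusted p from 0.0553 to 0.115), with 32 added before the log (log2 1.43, adjusted p = 0.121), with only the compared groups in the model (log2 2.01, adjusted p = 0.0956) and with the mean over its probe sets (log2 0.63, adjusted p = 0.0969). That of Ntn1 did not hold without MD replicate 1, HBEGF P1 replicate 1, 2 or 3, HBEGF P7 replicate 2 or serum P7 replicate 1, 2 or 3 in turn (log2 from -2.09 to -1.37, adjusted p from 0.0537 to 0.101), with 32 added before the log (log2 -1.70, adjusted p = 0.0617), with only the compared groups in the model (log2 -2.03, adjusted p = 0.103) and with the mean over its probe sets (log2 -0.59, adjusted p = 0.08). That of Efna1 did not hold without MD replicate 1, HBEGF P1 replicate 1, HBEGF P7 replicate 2 or serum P7 replicate 3 in turn (log2 from 1.35 to 1.64, adjusted p from 0.0521 to 0.063). That of Unc5b did not hold without MD replicate 1 or 3, HBEGF P1 replicate 1 or 2, HBEGF P7 replicate 1, 2 or 3 or serum P7 replicate 3 in turn (log2 from -1.21 to -0.79, adjusted p from 0.0532 to 0.105), with only the compared groups in the model (log2 -1.16, adjusted p = 0.0985) and with the mean over its probe sets (log2 -0.67, adjusted p = 0.0601). That of Unc5c did not hold without MD replicate 1 or 3, HBEGF P1 replicate 2 or 3, HBEGF P7 replicate 3 or serum P7 replicate 2 or 3 in turn (log2 from -1.20 to -0.94, adjusted p from 0.0608 to 0.0898) and with only the compared groups in the model (log2 -1.21, adjusted p = 0.0731). The fibroblast and meningeal markers moved in the same comparison, with 7 of 10 called higher in the difference and ranges of 12.01 to 13.39 in serum P7, 9.64 to 12.11 in HBEGF P7, 7.56 to 8.16 in MD and 10.23 to 10.57 in HBEGF P1 cultures. Their part was not tested.

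**Figure D5:**
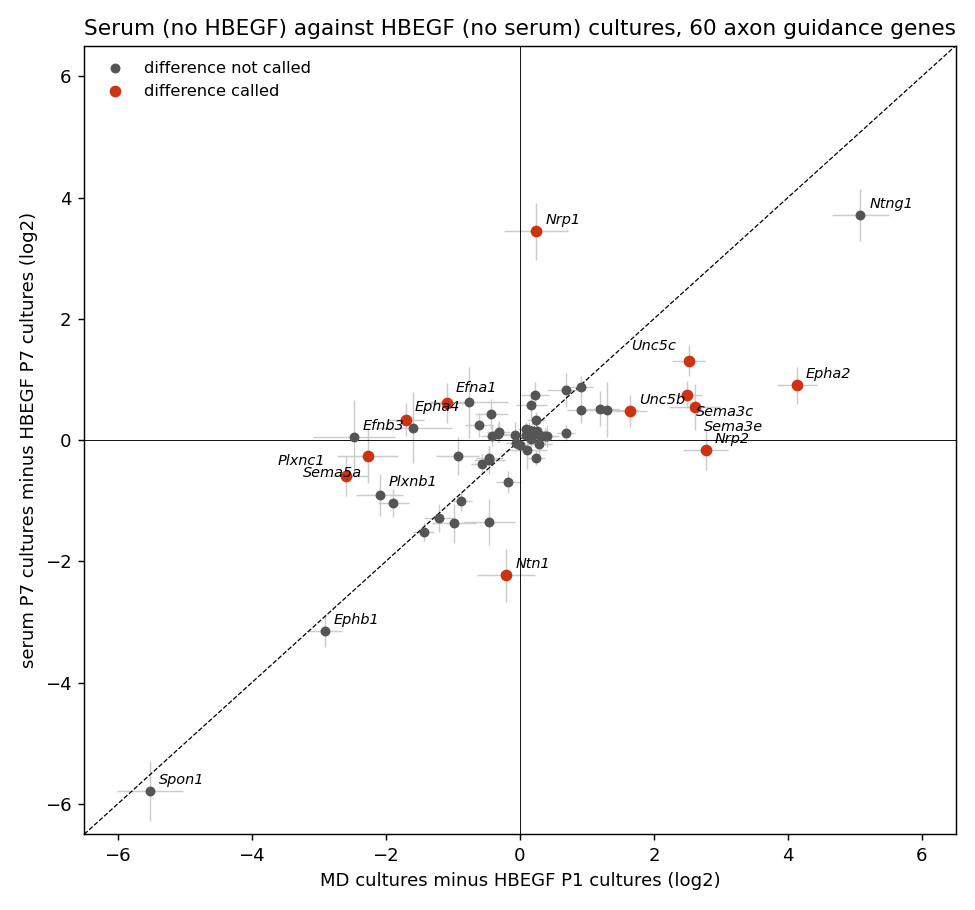
Difference between serum P7 and HBEGF P7 cultures (serum P7 minus HBEGF P7, log2, vertical axis) against the difference between MD and HBEGF P1 cultures (log2, horizontal axis), 1 point per member with SE bars and the line of equal values dashed. Red points mark the 12 members whose difference between both was called. Spon1 and Ephb1 lie near the line, Epha2 far to the right and Nrp1 far above it.

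The response to HBEGF culture differed between P7 and P1 cells for 3 members, 1 with a higher and 2 with a lower value in P7 cells, where 0.162% and 0.654% of all genes were called (0.816% in all). The count of 3 was 1 without fresh P1 replicate 1, 2 or 3, fresh P7 replicate 1 or 2, HBEGF P1 replicate 2 or HBEGF P7 replicate 3. Sema4a fell more from P7 cells (-2.44) than from P1 cells (-1.002), a difference of -1.44 ± 0.24 (SE, adjusted p = 0.00661). Ephb3 was -1.79 from P7 and -0.24 from P1 cells, a difference of -1.55 ± 0.33 (SE, adjusted p = 0.0385). The call was lost without fresh P1 replicate 1, 2 or 3, fresh P7 replicate 1 or 2, HBEGF P1 replicate 1 or 2 or HBEGF P7 replicate 3 in turn (log2 from -1.59 to -1.24, adjusted p from 0.0521 to 0.105), with array medians aligned (log2 -1.52, adjusted p = 0.0523) and with only the compared groups in the model (log2 -1.55, adjusted p = 0.152). Sema3c rose more from P7 (3.35) than from P1 cells (1.97), a difference of 1.38 ± 0.31 (SE, adjusted p = 0.0487). The call did not hold without fresh P1 replicate 1, 2 or 3, fresh P7 replicate 1, 2 or 3, HBEGF P1 replicate 2 or 3 or HBEGF P7 replicate 2 or 3 in turn (log2 from 1.13 to 1.45, adjusted p from 0.0521 to 0.115), with 32 added before the log (log2 1.32, adjusted p = 0.0524), with only the compared groups in the model (log2 1.38, adjusted p = 0.0665) and with replicate number as a block (log2 1.38, adjusted p = 0.0509).

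Promoters are shown for 4 members called in MD against HBEGF P1 cultures, of which Ephb3 and Plxna2 fell and Ntng1 and Sema3c rose. Each is the 250 bases before the annotated start, 5′ to 3′ on the gene's strand, from RefSeq on build GRCr8. Capitals mark exact matches, on either strand, to the GC box GGGCGG bound by Sp1, the AP-1 site TGACTCA, the TEAD site GGAATG or the CArG box of serum response factor. They lie at chr11:93363776-93364025, minus strand (Ephb3), chr13:108691280-108691529, plus strand (Plxna2), chr2:200515032-200515281, minus strand (Ntng1) and chr4:18699628-18699877, minus strand (Sema3c).
Ephb3: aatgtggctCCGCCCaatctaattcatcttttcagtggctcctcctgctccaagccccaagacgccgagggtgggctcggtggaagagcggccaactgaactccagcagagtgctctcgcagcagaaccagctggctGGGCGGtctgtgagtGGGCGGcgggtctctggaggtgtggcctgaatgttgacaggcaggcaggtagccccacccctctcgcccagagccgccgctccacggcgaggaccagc
Plxna2: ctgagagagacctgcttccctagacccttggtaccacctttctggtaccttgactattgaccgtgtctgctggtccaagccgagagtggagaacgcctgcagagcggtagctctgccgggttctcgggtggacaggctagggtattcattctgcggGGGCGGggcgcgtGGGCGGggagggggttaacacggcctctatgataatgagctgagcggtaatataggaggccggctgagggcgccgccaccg
Ntng1: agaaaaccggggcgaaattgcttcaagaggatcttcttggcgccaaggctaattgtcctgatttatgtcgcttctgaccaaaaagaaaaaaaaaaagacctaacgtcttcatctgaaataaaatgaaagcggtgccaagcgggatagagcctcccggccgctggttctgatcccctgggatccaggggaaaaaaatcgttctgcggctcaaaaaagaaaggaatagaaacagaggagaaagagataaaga
Sema3c: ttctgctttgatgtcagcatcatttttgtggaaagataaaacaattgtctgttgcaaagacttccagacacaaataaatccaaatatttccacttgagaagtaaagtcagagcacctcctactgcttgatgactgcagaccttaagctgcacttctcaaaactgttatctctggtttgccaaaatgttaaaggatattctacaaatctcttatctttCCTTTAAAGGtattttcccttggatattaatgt

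A promoter was listed for 45 of the 60 members. A GC box lay in 26 of these (57.8%), against 30.5% of all 33469 promoters of the same length. The 26 include Unc50 and Unc5cl, and the 33469 promoters are not limited to the 14217 genes measured. These sets were not matched for GC content. Ephb3 held 3 and Plxna2 held 2, while the Ntng1 and Sema3c windows held none. The shown promoters are examples and do not split the members by direction. Of other members called in MD against HBEGF P1 cultures, Sema3e, Unc5b, Epha2 and Robo2 rose and held a GC box. Sema6d, Plxnb1, Plxnc1 and Efna1 fell and held one too. Nrp2, which rose, and Ephb1 and Epha3, which fell, held none. GC content was 64.4% for Ephb3, 61.6% for Plxna2, 44.8% for Ntng1 and 35.2% for Sema3c, with a median of 51.2% over all promoters, and a GC-rich window holds this motif more often by its letters alone. The AP-1 letters lay in 1 member promoter (2.22%, against 4.05% of all), the TEAD letters in 3 (6.67%, against 12.1%) and the CArG box in 1 (2.22%, against 1.5%), which was Sema3c at base -33. A match is a description of letters and not a site, and no match says only that the letters are not in this window.

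Other genes of guidance signalling were read from a list of 25 further cues and adhesion receptors, all measured, and a list of 42 effectors that relay guidance receptors to the cytoskeleton, of which 38 were measured. Of the 25, 3 rose and 6 fell (36% called, all genes 19.6%) in MD cultures against fresh P1 cells, 1 rose and 9 fell (40%, all genes 18.4%) between MD and HBEGF P1 cultures, and 1 rose and 5 fell (24%, all genes 9.3%) in serum P7 against HBEGF P7 cultures. Rgma, the ligand of neogenin, fell by 1.78 ± 0.19 (SE, adjusted p = 1.59e-06) in MD against HBEGF P1 and fell by 1.46 ± 0.19 (SE, adjusted p = 5.64e-05) in serum P7 against HBEGF P7 cultures. Draxin, a netrin antagonist, fell by 2.21 ± 0.56 (SE, adjusted p = 0.00507) in MD against HBEGF P1 cultures, and the chemokine receptor gene Cxcr4 fell by 1.93 ± 0.51 (SE, adjusted p = 0.00656) there. Flrt2, a ligand of UNC5 receptors, rose by 1.94 ± 0.35 (SE, adjusted p = 0.000966) in serum P7 against HBEGF P7 cultures and was 3.55 ± 0.35 (SE, adjusted p = 2.25e-06) above MD cultures. In HBEGF cultures against fresh cells 3 rose and 1 fell from P1 (16%, all genes 8.87%) and 1 rose and 7 fell from P7 cells (32%, all genes 10.3%). In fresh P7 against fresh P1 cells 2 rose (8%, all genes 1.55%), and 1 was called without fresh P1 replicate 2 or fresh P7 replicate 1. Between HBEGF P7 and HBEGF P1 cultures 1 fell (4%, all genes 1.11%), and 2 were called without HBEGF P1 replicate 3 or HBEGF P7 replicate 1 or 3. In withdrawn P7 against HBEGF P7 cultures 3 rose and 2 fell (20%, all genes 11.7%), and the total of 5 was 2 to 3 without HBEGF P7 replicate 1 or 2 or withdrawn P7 replicate 3 and 8 without HBEGF P7 replicate 3. In withdrawn against serum P7 cultures limma called 0, with 10 of 25 at an unadjusted p under 0.05 (all genes 25.6%, and 4.5% called), 2 called without serum P7 replicate 3 and 1 without withdrawn P7 replicate 3. In serum P7 against MD cultures 3 rose (12%, all genes 13.9%). The median log2 difference over the 25 ran from -0.41 to 0.24 in the 10 comparisons, and over the 38 effectors from -0.16 to 0.16, beside -0.07 to 0.11 over all genes.

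Of the 38 effectors, 6 rose and 1 fell in HBEGF P1 (18.4% called, all genes 8.87%) and 6 rose and 4 fell in HBEGF P7 cultures (26.3%, all genes 10.3%) against fresh cells, and 6 rose and 2 fell (21.1%, all genes 19.6%) in MD cultures against fresh P1 cells. Between MD and HBEGF P1 cultures 3 rose and 5 fell (21.1%, all genes 18.4%), and in serum P7 against HBEGF P7 cultures 1 rose and 7 fell (21.1%, all genes 9.3%). In both MD comparisons the effectors were called at about the rate of all genes. Pak1, the kinase downstream of Rac and Cdc42, rose by 2.66 ± 0.40 (SE, adjusted p = 6.39e-05) and rose by 2.04 ± 0.40 (SE, adjusted p = 0.0018) in MD and serum P7 cultures against HBEGF cultures of the same age. Chn2, a Rac inhibitor of the chimaerin family, fell by 3.13 ± 0.33 (SE, adjusted p = 1.56e-06) and fell by 1.52 ± 0.33 (SE, adjusted p = 0.00362), and Dpysl4, of the collapsin response mediator family that relays semaphorin signals, fell by 2.43 ± 0.25 (SE, adjusted p = 9.58e-07) and fell by 1.38 ± 0.25 (SE, adjusted p = 0.000821). Chn1, a chimaerin of the Eph pathway, fell by 2.50 ± 0.20 (SE, adjusted p = 1.51e-07) in HBEGF P7 cultures against fresh P7 cells. The serum P7 count of 8 was 5 without HBEGF P7 replicate 2. Limma called 0 effectors in fresh P7 against fresh P1 cells (11 of 38 and 20.3% of all genes at an unadjusted p under 0.05, and 1 called without fresh P1 replicate 2 or fresh P7 replicate 1 or 3). It called 0 in HBEGF P7 against HBEGF P1 cultures (7 of 38 and 13.6% of all genes at an unadjusted p under 0.05, 1 called without HBEGF P7 replicate 1 and 2 without replicate 3). In withdrawn P7 cultures 1 rose against serum P7 (2.63%, all genes 4.5%) and 2 rose and 6 fell against HBEGF P7 cultures (21.1%, all genes 11.7%), and 4 were lower in serum P7 than in MD cultures (10.5%, all genes 13.9%).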

How the data were processed

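Expression was measured with Affymetrix rat arrays on 21 samples. The authors made 1 intensity for each probe set and array with RMA, according to the submitters' processing notes, and which release and probe set definition they used is not given in the sources used here. As deposited, the intensities span 10.0 to 37801, a linear scale, and their log2 was taken here. Array medians were close to equal, and a scaling that makes them so can shift values where many genes change one way.

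Each gene was read through its probe set with a symbol of its own and the highest mean over all arrays, and 24 members had other probe sets, none of which was called opposite to a called member in the same comparison. Of 31042 probe sets, 20826 carried 1 symbol. Groups were compared with limma 3.58.1 in R 4.3.3 (lmFit, contrasts.fit and eBayes on 7 group means, with 14 degrees of freedom left and 2.89 from the prior), with Benjamini-Hochberg adjustment over all probe sets. The code was first tested on simulated data. Tables were made with pandas 2.3.3 in Python 3.11.15.

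The members and lists were chosen with earlier results of these data known. Any member could be named in its family, called members first, and from each other list up to 4 called genes of a comparison by size of change, with Gfap, Aldh1l1, Itgb5, Hbegf and Egfr as checks. All 3 same-numbered pairs of arrays of 2 groups deviated together (correlation over 0.1) in 5 of the 10 comparisons, with correlations from -0.14 to 0.6 over all. Withdrawn against serum P7 cultures was among the 5, with correlations of 0.48, 0.245 and 0.533. Withdrawn cells were a portion of cells kept in serum, and whether same-numbered arrays share a preparation was not established here. No comparison was fitted as paired, and replicate number entered only as a block in 1 alternative, over all groups. The alternatives were aligned array medians, a filter on dim probe sets (log2 over 7 on at least 3 arrays kept), 32 added before the log, trended robust variances, only the compared groups, the mean over a gene's probe sets, the replicate number as a block, and each array left out.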

Additional observations from a re-analysis of the deposited data

Results flagged for a closer look

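The following results stood out because the response of a gene in one kind of cell differed from its response in the other, as tested by limma on the difference of both responses with n = 3 arrays per group. For the response to HBEGF culture, P7 minus P1 cells, the difference (log2) was 1.38 for Sema3c (adjusted p = 0.0487), -1.44 for Sema4a (adjusted p = 0.00661) and -1.55 for Ephb3 (adjusted p = 0.0385). For serum P7 against HBEGF P7 cultures minus MD against HBEGF P1 cultures, semaphorins and their receptors gave -1.74 for Sema3c (adjusted p = 0.00149), -2.07 for Sema3e (adjusted p = 0.0159), 2.01 for Sema5a (adjusted p = 0.0473), 2.00 for Plxnc1 (adjusted p = 0.00793), 3.20 for Nrp1 (adjusted p = 0.00418) and -2.93 for Nrp2 (adjusted p = 0.000738). In that contrast ephrin-A1 and its receptors gave 1.70 for Efna1 (adjusted p = 0.0231), -3.23 for Epha2 (adjusted p = 0.000174) and 2.04 for Epha4 (adjusted p = 0.00215). Netrin-1 and its receptors gave -2.03 for Ntn1 (adjusted p = 0.0362), -1.16 for Unc5b (adjusted p = 0.0432) and -1.21 for Unc5c (adjusted p = 0.0323). MD and panned P7 cells differ in age and preparation together, and these cannot be told apart. Both contrasts use the HBEGF P1 and HBEGF P7 arrays, so a difference between these groups enters both.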

How the results depend on the processing

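Of 135 calls of a member in a comparison or a difference of responses, 87 were kept under all alternatives run and 48 were lost under at least 1, and none changed sign. With any 1 array left out, 35 were lost at least once. With only the compared groups in the model 25 were lost, and the counts of members called were 2 in place of 1 in fresh P7 against fresh P1 cells, 0 in place of 3 in HBEGF P7 against HBEGF P1, 1 in place of 4 in withdrawn against serum P7, 7 in place of 14 in withdrawn against HBEGF P7 and 1 in place of 3 in the difference of HBEGF responses. The mean over a gene's probe sets lost 25 as well and gave 6 in place of 11 in serum P7 against MD cultures. Adding 32 before the log lost 13 calls, aligning array medians 4, and the dim filter (134 calls testable) and trended robust variances lost 0. Alignment moved MD against HBEGF P1 cultures by 0.11 on the log2 scale, with 11 higher and 11 lower in place of 9 and 12. With 1 array left out the counts ran from 1 to 2 in fresh P7 against fresh P1, 0 to 4 in HBEGF P7 against HBEGF P1, 1 to 8 in withdrawn against serum P7, 1 to 3 in the difference of HBEGF responses and 7 to 12 in the difference between the serum P7 and MD responses. With the replicate number as a block 1 call was lost, Sema3c in the difference of HBEGF responses (adjusted p = 0.0509), leaving 2 of 3 members. Intensities near the floor limit what can be read of the 17 dimmest members.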
